A study of Homo sapiens with 9 samples.

Results

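Transcripts of 29 genes of sterol synthesis, fatty acid synthesis and their control by SREBP were followed in A375 cells, a single human melanoma line, across 3 doses of metformin. The genes were chosen by name from a list, with earlier results of these data known, and were found by exact match of the gene symbol. All 29 occurred once among the 37118 genes of the deposited table. Metformin, a biguanide used against type 2 diabetes, was given at 0, 20 or 40 mM to cells labelled wild type, with 3 libraries at each dose and 9 in all. The labels give neither the length of the treatment nor the medium or serum, and nothing says that the 3 libraries of a dose came from separate cultures. Every p-value therefore reflects the scatter among the libraries alone, and that scatter may be technical. The series as a whole asks how metformin acts on ferroptosis, an iron-dependent form of cell death, in melanoma.

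SREBPs are transcription factors made as membrane proteins of the endoplasmic reticulum. The escort protein SCAP carries them to the Golgi, where proteases release the active part, and when sterols are plentiful INSIG proteins hold SCAP back. SREBP2, the product of SREBF2, mainly drives genes of cholesterol synthesis, and SREBP1, the product of SREBF1, mainly those of fatty acid synthesis. The mevalonate pathway makes the isoprenoid units for cholesterol and also for ubiquinone, dolichol and prenylated proteins. By role, the list held 7 mevalonate enzymes, 11 enzymes from squalene to cholesterol, 5 SREBP regulators, 1 sterol carrier and 5 enzymes of fatty acid and glycerolipid synthesis.

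Total counts per library ran from 65738242 to 75629413, the lowest being replicate 3 of 40 mM. Transcripts encoded by mitochondrial DNA took 4.36% of the counts of that library, against 3.01% and 3.27% in replicates 1 and 2 of 40 mM. In replicates 1, 2 and 3 they took 2.76%, 3.08% and 3.53% at 0 mM, and 3.63%, 3.68% and 3.77% at 20 mM. The neural crest factor SOX10 averaged 95.8 FPKM over the 9 libraries and S100B 8.33, while the pigment cell genes PMEL and MLANA averaged 0.152 and 0.222 FPKM. S100B, also a Schwann cell gene, fell at 40 mM, where it was at 5.27, 6.75 and 5.93 FPKM, against 7.96, 10.4 and 12.3 FPKM at 0 mM (-0.80 ± 0.15, edgeR adjusted p = 8e-04), and it was lower than at 20 mM too (-0.58 ± 0.15, adjusted p = 0.013). It was the single one of 4 tested melanoma and neural crest markers, of 8 listed, to be called. FPKM is a fragment count scaled by transcript length and by library depth. Of 16 listed markers of keratinocytes, fibroblasts, immune cells, endothelium and simple epithelium, 6 were tested, and 2 were called higher and none lower at 20 mM, and 4 higher and none lower at 40 mM, against 0 mM. Of all tested genes 16.3% were higher and 15.2% lower at 20 mM, and 28.8% higher and 27.4% lower at 40 mM. The 4 markers called higher at 40 mM were KRT10, LUM, PDGFRB and CD68, a lysosomal protein as well as a macrophage marker. The libraries' summed fibroblast markers ran from 4.42 to 4.93 FPKM at 0 mM, 5.01 to 6.04 FPKM at 20 mM and 7.96 to 8.69 FPKM at 40 mM, and the immune markers from 3.65 to 4.38, 10.8 to 12.9 and 15.0 to 22.1 FPKM, almost all of it CD68. The leukocyte gene PTPRC was above 0 in a single library and the fibroblast genes DCN and COL1A1 averaged 0.0916 and 0.137 FPKM. The part of S100B and of these other markers in the dose differences reported here was not tested. In bulk RNA such as this, fewer cells of a type and less RNA per cell cannot be told apart.

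All 29 genes had a mean of at least 1 FPKM over the 9 libraries and entered the test, with 12394 genes tested in all. In untreated cells their levels spanned from 58.6 ± 0.866 FPKM (SD, n = 3) for ACLY, which makes cytosolic acetyl-CoA from citrate, to 1.17 ± 0.0990 FPKM for the sterol reductase TM7SF2. FASN, fatty acid synthase, stood second at 52.8 ± 4.06 FPKM. Changes are given as log2 fold change ± SE (3 libraries per dose) from edgeR's quasi-likelihood test. The words rose and fell are kept for changes with a Benjamini-Hochberg adjusted p under 0.05 over all tested genes. Gene positions were copied from the deposited table, and the sources used here name no build for it. The spans of 11 of the 29 genes are identical in GENCODE release 29, and the others overlap their namesakes there.

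At 20 mM against 0 mM, 14 of the 29 genes fell and 1 rose, where 15.2% of all tested genes fell and 16.3% rose. At 40 mM against 0 mM, 13 fell and 5 rose, where 27.4% of all tested genes fell and 28.8% rose. Between the doses, at 40 mM against 20 mM, 6 fell and 3 rose, where 15.1% fell and 14.3% rose. Both comparisons with 0 mM share the untreated libraries, and both comparisons with 20 mM share those of that dose. The median log2 fold change of the 29 genes was -0.10 at 20 mM and -0.19 at 40 mM against 0 mM, and 0.06 at 40 mM against 20 mM. Over all tested genes each of these medians was within 0.0008 of 0. Judged by library levels alone, the FPKM of 16 genes lay wholly below and of 2 wholly above the untreated libraries at 20 mM, where 24.9% and 25.6% of all tested genes did, and of 14 and 5 at 40 mM, where 26.8% and 34.4% did. At 40 mM 6 genes lay wholly below and 5 wholly above the 20 mM libraries, where 18% and 25.9% of all tested genes did. Without replicate 2 of 20 mM, 9 rather than 14 genes fell at 20 mM. By role, at 40 mM all 7 mevalonate enzymes fell, 1 of the 11 later sterol enzymes fell and 3 rose, and 3 of the 5 fatty acid and glycerolipid enzymes fell and 2 rose.

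**Figure D1:**
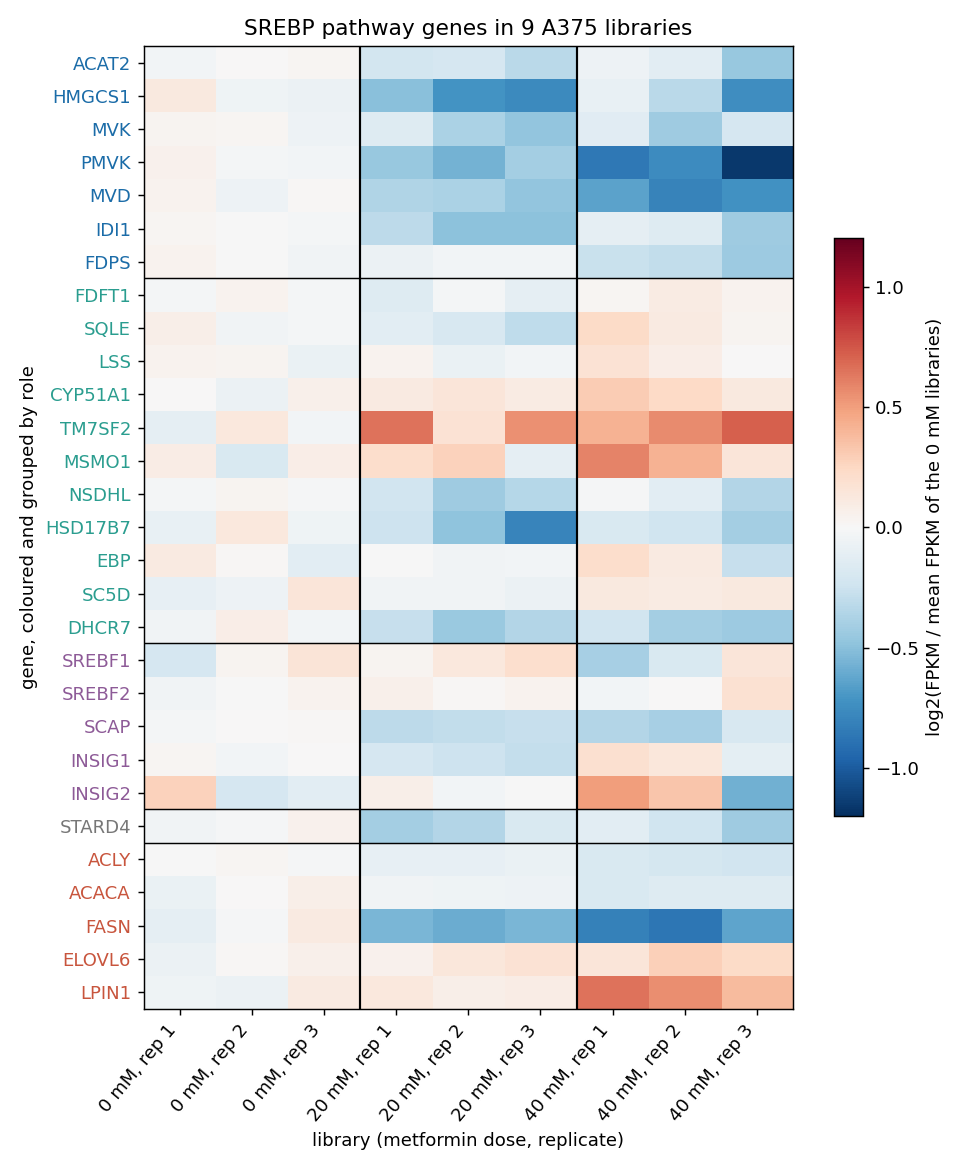
Level of each of the 29 genes (rows, grouped and coloured by role) in the 9 libraries (columns, by dose and replicate), as log2 of FPKM over the mean FPKM of the 0 mM libraries; blue is below and red above that mean. PMVK, MVD and FASN are lower at both doses, while HMGCS1 and IDI1 are lower at 20 mM than in replicates 1 and 2 of 40 mM.

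All mevalonate enzymes but FDPS fell at both doses. At 20 mM 6 of 7 fell, where 15.2% of all tested genes did, and at 40 mM 7 of 7, where 27.4% did. The median log2 fold changes of the 7 were -0.41 and -0.37. The summed level of the 7 genes was 117, 113 and 112 FPKM at 0 mM, 95.4, 92.2 and 91.9 FPKM at 20 mM, and 92.8, 89.5 and 75.1 FPKM at 40 mM. No library of either treated group reached the untreated ones, and replicate 3 of 40 mM was the lowest of the 9. Without replicate 1 of 0 mM, 4 rather than 6 of the enzymes were called lower at 20 mM, and 3 rather than 7 at 40 mM. With no filter on low values, 4 were called lower at each dose.

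PMVK, phosphomevalonate kinase (ENSG00000163344, chromosome 1, 154924740 to 154936719), had the largest fall of the 29 genes at 40 mM. It was at 26.0, 24.6 and 24.4 FPKM at 0 mM, at 18.3, 16.9 and 18.9 FPKM at 20 mM, and at 13.8, 14.8 and 11.2 FPKM at 40 mM. The 3 groups did not overlap, and each dose step lowered it by nearly the same amount on the log2 scale. Its log2 fold change was -0.48 ± 0.09 at 20 mM (edgeR adjusted p = 0.0036) and -0.95 ± 0.10 at 40 mM (adjusted p = 1.3e-05), and -0.47 ± 0.10 at 40 mM against 20 mM (adjusted p = 0.0047). MVD, the decarboxylase that forms isopentenyl diphosphate (ENSG00000167508, chromosome 16, 88651935 to 88663161), stepped down in the same manner. Its libraries held 3.41, 3.17 and 3.33 FPKM at 0 mM, 2.56, 2.53 and 2.38 FPKM at 20 mM, and 2.12, 1.89 and 1.99 FPKM at 40 mM. Again no 2 groups overlapped, with log2 fold changes of -0.41 ± 0.08 at 20 mM and -0.75 ± 0.08 at 40 mM (edgeR adjusted p = 0.0034 and 2e-05), and -0.34 ± 0.08 at 40 mM against 20 mM (adjusted p = 0.0095).

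FDPS, farnesyl diphosphate synthase (ENSG00000160752, chromosome 1, 155308748 to 155320666), fell at the higher dose. Its levels were 35.2, 34.1 and 33.2 FPKM at 0 mM, 32.5, 33.4 and 33.3 FPKM at 20 mM, and 28.3, 27.8 and 25.3 FPKM at 40 mM. The 20 mM libraries overlapped the untreated ones (-0.05 ± 0.05, edgeR adjusted p = 0.48), and the 40 mM libraries lay below both other groups (-0.37 ± 0.05 against 0 mM, adjusted p = 9.2e-05; -0.32 ± 0.05 against 20 mM, adjusted p = 0.0011). FDPS overlaps RUSC1-AS1 on the opposite strand over 3804 bases, and its 6 listed pseudogenes had mean counts of 0.444 to 3.78, against 9633 for FDPS.

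HMGCS1, the cytosolic synthase that makes HMG-CoA (ENSG00000112972, chromosome 5, 43287470 to 43313512), had the largest fall of the 29 genes at 20 mM. It was at 12.03, 10.7 and 10.6 FPKM at 0 mM, at 7.86, 6.74 and 6.54 FPKM at 20 mM, and at 10.4, 8.89 and 6.63 FPKM at 40 mM. All treated libraries were below all untreated ones, and at 40 mM replicate 3 stood at the level of the 20 mM libraries while replicates 1 and 2 lay above them. The log2 fold change was -0.66 ± 0.14 at 20 mM (edgeR adjusted p = 0.0042) and -0.40 ± 0.13 at 40 mM (adjusted p = 0.027), and the 40 mM value was not called without replicate 1 of 0 mM or replicate 2 of 40 mM and ran from -0.55 to -0.24 without single libraries. IDI1, which isomerises isopentenyl diphosphate (ENSG00000067064, chromosome 10, 1039152 to 1049170), followed a like course. Its levels were 13.1, 12.9 and 12.7 FPKM at 0 mM, 10.4, 9.15 and 9.15 FPKM at 20 mM, and 11.95, 11.6 and 9.58 FPKM at 40 mM. The treated libraries all lay below the untreated ones, at -0.43 ± 0.08 for 20 mM (edgeR adjusted p = 0.0023) and -0.26 ± 0.08 for 40 mM (adjusted p = 0.017, and not called without replicate 1 of 0 mM).

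The other members of this arm, the thiolase ACAT2 and mevalonate kinase MVK, fell by small amounts. ACAT2 (ENSG00000120437, chromosome 6, 159762045 to 159779112) was at 23.4, 24.1 and 24.4 FPKM at 0 mM, 20.6, 20.8 and 19.2 FPKM at 20 mM, and 23.0, 22.0 and 17.4 FPKM at 40 mM. Its calls sat at the edge of the threshold, at -0.25 ± 0.08 for 20 mM (edgeR adjusted p = 0.042) and -0.24 ± 0.08 for 40 mM (adjusted p = 0.031), and the 20 mM call was lost without any 1 of the 6 libraries compared. The 40 mM call was lost without any of the 3 untreated libraries, and its value ran from -0.32 to -0.13 over left-out libraries, being -0.13 without replicate 3 of 40 mM. ACAT2 overlaps TCP1 on the opposite strand over 615 bases, and TCP1 had a mean count of 33355 against 4708 for ACAT2. MVK (ENSG00000110921, chromosome 12, 109573255 to 109598117) was at 3.57, 3.54 and 3.34 FPKM at 0 mM, 3.14, 2.68 and 2.51 FPKM at 20 mM, and 3.17, 2.601 and 3.03 FPKM at 40 mM. All its treated libraries lay below the untreated ones, at -0.33 ± 0.10 and -0.28 ± 0.10 for 20 and 40 mM (edgeR adjusted p = 0.025 and 0.028). Any of 4 single left-out libraries ended the MVK call at 20 mM, and any of 3 that at 40 mM. The labels describe strand-marking libraries but not whether strand was used in counting, so the share of reads from overlapping genes is uncertain for FDPS, ACAT2 and MVK, which overlaps MMAB over 326 bases.

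Promoter sequence of 6 genes is shown because they stand for the 2 dose courses in these data: PMVK, MVD and FDPS were lowest at 40 mM, while HMGCS1, IDI1 and the SREBP regulator INSIG1, described further on, were lowest on average at 20 mM. Each line is the RefSeq window from 250 bases before to 50 bases after a start site (GRCh38.p14), read 5′ to 3′ on the gene's strand. For genes with several windows, the one nearest to the 5′ end of the deposited gene span was taken. Capitals mark CCAAT in either orientation, the box bound by NF-Y, a usual partner of SREBP, and CACNCCAC in either orientation, the core of a sterol regulatory element.
PMVK, chr1:154936670-154936969, minus strand: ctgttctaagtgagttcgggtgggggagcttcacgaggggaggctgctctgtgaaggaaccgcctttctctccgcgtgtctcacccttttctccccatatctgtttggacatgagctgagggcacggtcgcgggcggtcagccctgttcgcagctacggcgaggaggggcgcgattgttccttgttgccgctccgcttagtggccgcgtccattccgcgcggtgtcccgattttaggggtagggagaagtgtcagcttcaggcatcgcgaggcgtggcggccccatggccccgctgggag
MVD, chr16:88663042-88663341, minus strand: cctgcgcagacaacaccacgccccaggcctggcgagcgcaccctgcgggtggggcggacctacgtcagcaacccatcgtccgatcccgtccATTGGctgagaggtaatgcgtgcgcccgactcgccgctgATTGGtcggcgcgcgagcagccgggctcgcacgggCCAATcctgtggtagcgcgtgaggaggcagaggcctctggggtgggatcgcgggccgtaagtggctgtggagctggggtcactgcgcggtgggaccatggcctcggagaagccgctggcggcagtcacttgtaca
FDPS, chr1:155308616-155308915, plus strand: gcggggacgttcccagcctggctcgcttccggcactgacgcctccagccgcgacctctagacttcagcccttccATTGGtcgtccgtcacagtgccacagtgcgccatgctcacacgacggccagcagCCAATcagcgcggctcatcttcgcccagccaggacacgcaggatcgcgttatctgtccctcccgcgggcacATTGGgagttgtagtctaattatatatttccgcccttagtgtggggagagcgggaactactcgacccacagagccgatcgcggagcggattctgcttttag
HMGCS1, chr5:43313363-43313662, minus strand: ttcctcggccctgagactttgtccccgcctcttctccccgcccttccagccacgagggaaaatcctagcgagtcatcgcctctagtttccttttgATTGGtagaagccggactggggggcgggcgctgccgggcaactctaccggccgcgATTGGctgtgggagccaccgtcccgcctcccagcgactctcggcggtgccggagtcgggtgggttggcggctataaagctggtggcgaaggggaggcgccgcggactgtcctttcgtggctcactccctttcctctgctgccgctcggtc
IDI1, chr10:1049070-1049369, minus strand: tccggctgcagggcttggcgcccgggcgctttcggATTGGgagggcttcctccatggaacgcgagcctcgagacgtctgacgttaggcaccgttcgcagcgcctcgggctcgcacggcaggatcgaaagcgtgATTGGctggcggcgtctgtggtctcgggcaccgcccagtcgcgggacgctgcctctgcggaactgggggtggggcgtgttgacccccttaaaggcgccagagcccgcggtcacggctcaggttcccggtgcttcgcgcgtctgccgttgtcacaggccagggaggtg
INSIG1, chr7:155297628-155297927, plus strand: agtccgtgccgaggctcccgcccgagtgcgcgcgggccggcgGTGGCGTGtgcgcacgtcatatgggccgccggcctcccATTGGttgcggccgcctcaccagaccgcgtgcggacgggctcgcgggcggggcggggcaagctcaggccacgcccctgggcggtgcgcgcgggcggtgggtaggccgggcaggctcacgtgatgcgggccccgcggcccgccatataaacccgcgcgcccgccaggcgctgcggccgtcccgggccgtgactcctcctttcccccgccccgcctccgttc

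Windows were on hand for 25 of the 29 genes; ACAT2, FDFT1, SQLE and FASN had none. CCAAT, sought on both strands, stood in 16 of the 25 windows, while 34.6% of all 35116 windows in the table and 35.6% of the 12861 windows of tested genes held it. By role it was in 5 of 6 mevalonate enzymes, 7 of 9 later sterol enzymes, 2 of 5 regulators, 1 of 4 fatty acid and glycerolipid enzymes and the carrier STARD4. Of the 6 windows printed, MVD and FDPS held 3 matches each, HMGCS1 and IDI1 2 each, INSIG1 1 and PMVK none, so both dose courses include windows with the box. The core CACNCCAC was in 3 of the 25 windows (SC5D, SREBF2 and INSIG1) and in 5.87% of all windows. Its longer form TCACNCCAC, which contains the core, was in SREBF2 alone among the 25 and in 1.13% of all windows. Only these spellings were sought, so a window without a match may still hold a sterol regulatory element of another spelling. The GC box GGGCGG was in 22 of the 25, in 45.0% of all windows and in 67.1% of those of tested genes. The E-box CACGTG was in 4 of the 25 (LSS, SC5D, SCAP and INSIG1), in 7.26% of all windows and in 9.77% of those of tested genes. For ACLY, DHCR7 and SCAP the nearest window lay 11520, 3825 and 1185 bases from the 5′ end of the deposited span, so it may not be the promoter in use.

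**Figure D2:**
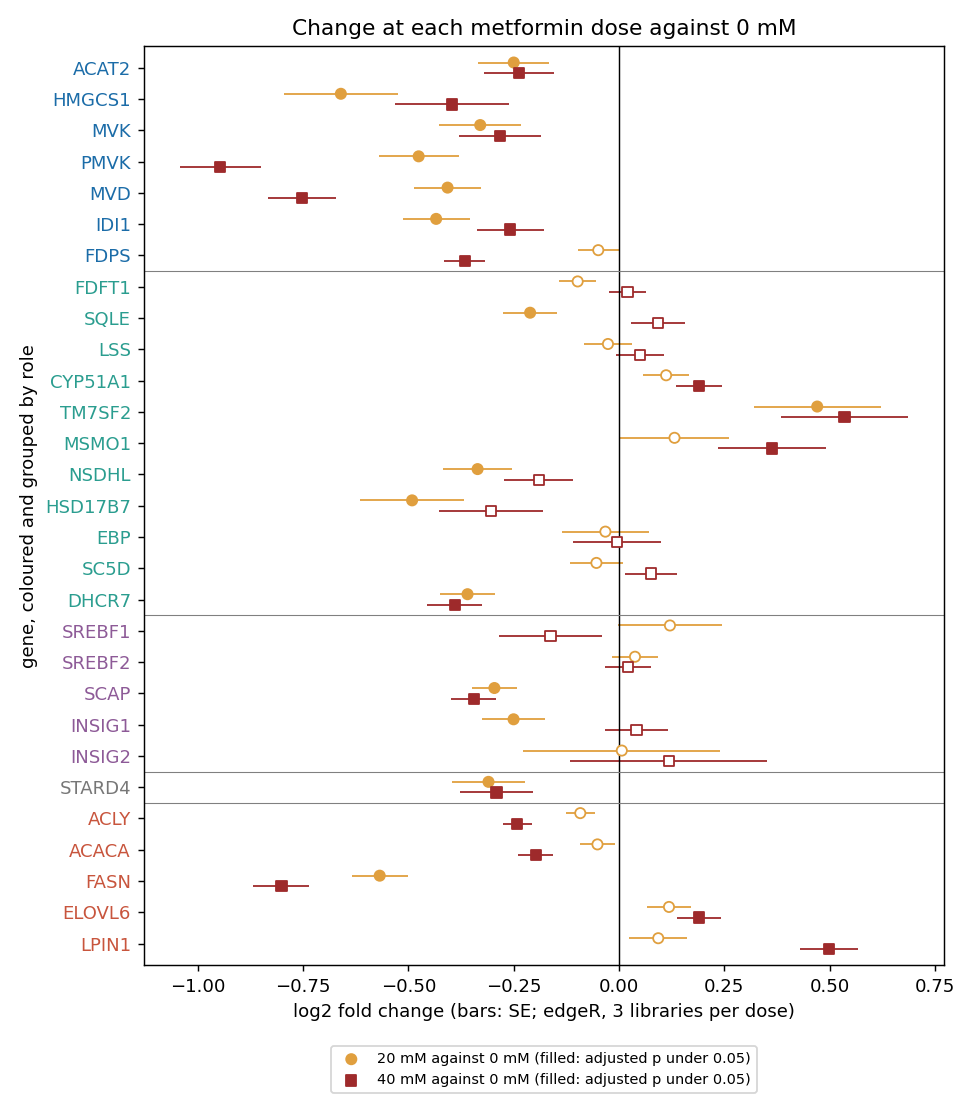
Log2 fold change (points, with SE bars; edgeR, 3 libraries per dose) of each gene at 20 mM (circles) and 40 mM (squares) against 0 mM, grouped and coloured by role; filled points passed an adjusted p of 0.05. All 7 mevalonate enzymes lie left of 0 at both doses, whereas the later sterol enzymes spread from -0.49 for HSD17B7 at 20 mM to 0.54 for TM7SF2 at 40 mM.

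The 11 enzymes from squalene to cholesterol did not move as a block. At 20 mM 4 fell and 1 rose, where 15.2% of all tested genes fell and 16.3% rose. At 40 mM 1 fell and 3 rose, where 27.4% of all tested genes fell and 28.8% rose. The median log2 fold changes of the 11 enzymes were -0.05 and 0.05. Their summed level was 133, 132 and 128 FPKM at 0 mM, 125, 122 and 119 FPKM at 20 mM, and 144, 137 and 122 FPKM at 40 mM. The 20 mM libraries were the low group by this sum, and replicate 3 of 40 mM lay among them. With each of the 11 genes weighted alike, the mean log2 ratio to the 0 mM mean was -0.0069, -0.11 and -0.14 at 20 mM. It was 0.15, 0.09 and -0.03 at 40 mM, and -0.0060, 0.0089 and -0.0092 at 0 mM. By this measure replicate 1 of 20 mM lay among the untreated libraries.

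DHCR7, the reductase that forms cholesterol from its direct precursor (ENSG00000172893, chromosome 11, 71428193 to 71452868), fell at both doses. It was at 13.7, 14.9 and 13.8 FPKM at 0 mM, at 11.7, 10.3 and 11.03 FPKM at 20 mM, and at 12.01, 10.6 and 10.4 FPKM at 40 mM. The treated groups overlapped each other and lay below the untreated one, at -0.36 ± 0.07 for 20 mM and -0.39 ± 0.07 for 40 mM (edgeR adjusted p = 0.0021 and 0.00044). NSDHL and HSD17B7, which with MSMO1 remove methyl groups from the sterol ring, fell at 20 mM. NSDHL (ENSG00000147383, chromosome X, 152830967 to 152869363) was at 15.9, 16.4 and 16.0 FPKM at 0 mM, 13.7, 11.9 and 12.7 FPKM at 20 mM, and 15.9, 14.8 and 12.6 FPKM at 40 mM (-0.34 ± 0.08 at 20 mM, edgeR adjusted p = 0.01; -0.19 ± 0.08 at 40 mM, adjusted p = 0.068). HSD17B7 (ENSG00000132196, chromosome 1, 162790702 to 162812817) was at 3.43, 3.97 and 3.51 FPKM at 0 mM, 3.06, 2.597 and 2.104 FPKM at 20 mM, and 3.21, 3.08 and 2.75 FPKM at 40 mM (-0.49 ± 0.12 at 20 mM, edgeR adjusted p = 0.012; -0.30 ± 0.12 at 40 mM, adjusted p = 0.057). Both genes had 20 mM libraries wholly below the untreated ones. The HSD17B7 call at 20 mM was lost without replicate 2 of 0 mM, and its pseudogene HSD17B7P2 was listed at a mean count of 48.8 against 1216 for the gene.

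The 3 enzymes that act first after lanosterol, namely CYP51A1, TM7SF2 and MSMO1, rose at 40 mM. These were 3 of the 11 later sterol enzymes, near the 28.8% of all tested genes that rose. TM7SF2 was near the lower limit of the test, at a mean of 1.51 FPKM over the 9 libraries. CYP51A1, the demethylase of lanosterol (ENSG00000001630, chromosome 7, 92112153 to 92134803), was at 14.4, 13.8 and 15.0 FPKM at 0 mM, 15.5, 15.9 and 15.4 FPKM at 20 mM, and 17.8, 17.03 and 15.6 FPKM at 40 mM. Every 40 mM library exceeded every untreated one, at 0.19 ± 0.05 (edgeR adjusted p = 0.012; not called without replicate 2 of 0 mM). MSMO1, a methyl sterol oxidase (ENSG00000052802, chromosome 4, 165327667 to 165343164), was at 7.59, 6.27 and 7.51 FPKM at 0 mM, 8.23, 8.63 and 6.61 FPKM at 20 mM, and 10.7, 9.52 and 7.88 FPKM at 40 mM. Its 40 mM libraries were spread over a wide range above the untreated ones, at 0.36 ± 0.13 (edgeR adjusted p = 0.032), and 4 single left-out libraries ended the call, with values from 0.26 to 0.47. TM7SF2, the reductase of the next step (ENSG00000149809, chromosome 11, 65111845 to 65116384), was at 1.08, 1.28 and 1.14 FPKM at 0 mM, 1.84, 1.32 and 1.71 FPKM at 20 mM, and 1.56, 1.73 and 1.92 FPKM at 40 mM. Both treated groups lay above the untreated one, at 0.47 ± 0.15 and 0.54 ± 0.15 (edgeR adjusted p = 0.036 and 0.011), and the 20 mM call was lost without any of 5 single libraries.

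SQLE, squalene epoxidase (ENSG00000104549), fell at 20 mM and rose at 40 mM relative to 20 mM. It was at 13.2, 12.2 and 12.3 FPKM at 0 mM, at 11.5, 10.995 and 10.2 FPKM at 20 mM, and at 14.7, 13.6 and 12.9 FPKM at 40 mM. The 20 mM group lay below both others, which overlapped. The log2 fold change was -0.21 ± 0.06 at 20 mM against 0 mM (edgeR adjusted p = 0.029, not called without replicate 1 of 0 mM or replicate 2 or 3 of 20 mM), 0.09 ± 0.06 at 40 mM against 0 mM (adjusted p = 0.23), and 0.30 ± 0.06 at 40 mM against 20 mM (adjusted p = 0.0055). Squalene synthase FDFT1, lanosterol synthase LSS, the isomerase EBP and the desaturase SC5D were not called in any comparison of the edgeR fit used for calls. FDFT1 was called higher at 40 mM against 20 mM with a 5 FPKM filter (edgeR adjusted p = 0.039) and in limma (adjusted p = 0.032). So it was with a replicate block (edgeR adjusted p = 0.037) or without replicate 2 of 20 mM (adjusted p = 0.046). SC5D was called higher at 40 mM against 0 mM without replicate 3 of 0 mM (edgeR adjusted p = 0.035). FDFT1 ran from 20.4 to 21.3 FPKM at 0 mM, 18.6 to 20.4 FPKM at 20 mM and 21.0 to 22.2 FPKM at 40 mM, with -0.10 ± 0.04 at 20 mM against 0 mM (edgeR adjusted p = 0.11) and 0.12 ± 0.04 at 40 mM against 20 mM (adjusted p = 0.065). LSS ran from 7.33 to 7.94 FPKM at 0 mM, 7.31 to 7.96 FPKM at 20 mM and 7.74 to 8.71 FPKM at 40 mM. EBP had its widest spread at 40 mM, with 35.3, 33.0 and 25.2 FPKM, against 27.9 to 32.8 FPKM at 0 mM. SC5D lay between 2.82 and 3.32 FPKM in all 9 libraries.

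**Figure D3:**
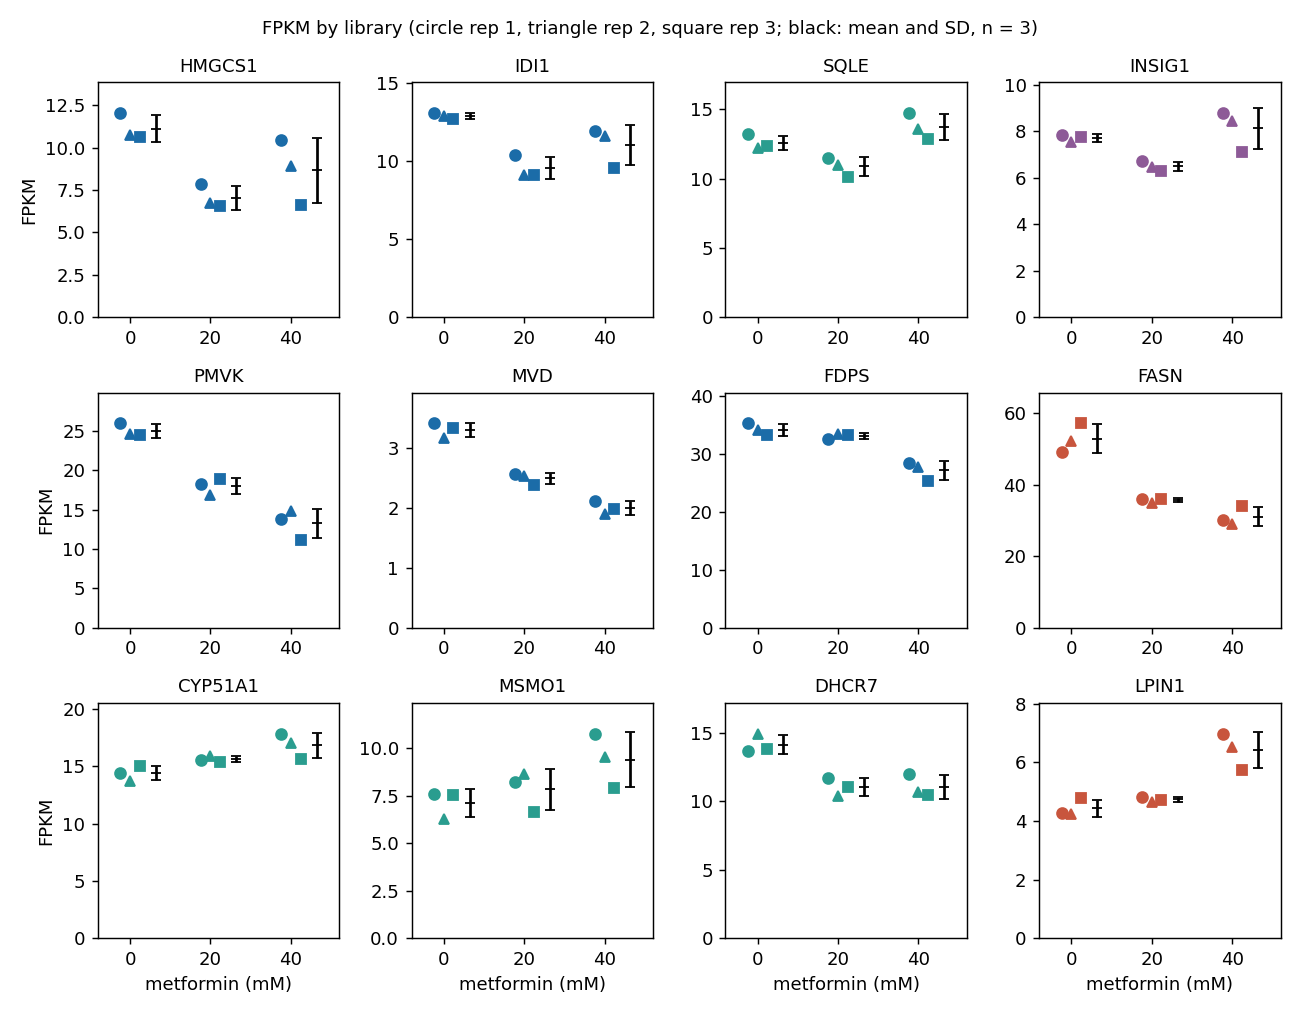
FPKM (vertical axes, from 0) of 12 of the genes by metformin dose; circles, triangles and squares are replicates 1, 2 and 3, and black bars give mean and SD (n = 3). In the top row the 20 mM libraries are the low group on average, for PMVK and MVD the 3 groups step down, and LPIN1 lies between 5.75 and 6.97 FPKM at 40 mM, above all other libraries.

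Among the SREBP regulators, SCAP changed at both doses. The genes of the SREBPs themselves were not called in the edgeR fit of all 9 libraries without a replicate block. SCAP, the escort protein (ENSG00000114650, chromosome 3, 47413681 to 47477126), was at 11.98, 12.2 and 12.3 FPKM at 0 mM, at 9.79, 9.93 and 10.1 FPKM at 20 mM, and at 9.56, 9.22 and 10.6 FPKM at 40 mM. Treated and untreated libraries did not overlap, with log2 fold changes of -0.30 ± 0.05 and -0.34 ± 0.05 (edgeR adjusted p = 0.0021 and 0.00025). INSIG1, the anchor that retains SCAP and is itself a target of SREBP (ENSG00000186480, chromosome 7, 155297776 to 155310233), was at 7.85, 7.54 and 7.75 FPKM at 0 mM, at 6.71, 6.48 and 6.31 FPKM at 20 mM, and at 8.79, 8.46 and 7.13 FPKM at 40 mM. The 20 mM libraries lay below all others, and replicate 3 of 40 mM was below the untreated libraries while replicates 1 and 2 were above them. Its log2 fold change was -0.25 ± 0.07 at 20 mM against 0 mM (edgeR adjusted p = 0.026), 0.04 ± 0.07 at 40 mM against 0 mM (adjusted p = 0.66), and 0.29 ± 0.07 at 40 mM against 20 mM (adjusted p = 0.014). The 20 mM call was lost without any of 4 single libraries, and the rise between the doses without replicate 3 of 20 mM (0.23 to 0.37 over all left-out libraries) or replicate 1 of 40 mM.

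SREBF2 was at 13.2 to 13.9 FPKM at 0 mM, 13.7 to 14.1 FPKM at 20 mM and 13.2 to 15.3 FPKM at 40 mM, with 0.04 ± 0.06 and 0.02 ± 0.06 at 20 and 40 mM (edgeR adjusted p = 0.64 and 0.77). SREBF1 was at 8.42, 9.92 and 10.8 FPKM at 0 mM, 9.94, 10.6 and 11.2 FPKM at 20 mM, and 7.35, 8.56 and 10.7 FPKM at 40 mM. Its 3 groups overlapped (0.12 ± 0.12 at 20 mM, edgeR adjusted p = 0.49; -0.16 ± 0.12 at 40 mM, adjusted p = 0.29; -0.28 ± 0.12 at 40 mM against 20 mM, adjusted p = 0.11). Without replicate 3 of 40 mM, where SREBF1 was highest in its group, it was called lower at 40 mM against 0 mM (-0.32 ± 0.09, edgeR adjusted p = 0.012) and against 20 mM (-0.44 ± 0.09, adjusted p = 0.0049). Against 20 mM it was also called lower by DESeq2 (adjusted p = 0.045) and with the replicate block (-0.30, edgeR adjusted p = 0.0082), which called it against 0 mM as well (-0.17, adjusted p = 0.047). SREBF1 overlaps RAI1 on the opposite strand over 1055 bases, with a mean count of 6576 for SREBF1 and 10221 for RAI1. INSIG2, the second anchor, was near the lower limit of the test at 1.38 to 1.92 FPKM at 0 mM, 1.55 to 1.66 FPKM at 20 mM and 1.06 to 2.24 FPKM at 40 mM, and was not called (0.01 ± 0.23 and 0.12 ± 0.23, edgeR adjusted p = 0.99 and 0.69). STARD4, a cytosolic carrier of cholesterol (ENSG00000164211, chromosome 5, 111496033 to 111512590), was at 3.52, 3.58 and 3.75 FPKM at 0 mM, 2.73, 2.84 and 3.20 FPKM at 20 mM, and 3.31, 3.07 and 2.69 FPKM at 40 mM. All treated libraries were below all untreated ones, at -0.31 ± 0.09 and -0.29 ± 0.09 (edgeR adjusted p = 0.02 and 0.015), and the 20 mM call was lost without replicate 3 of 0 mM or replicate 1 or 2 of 20 mM.

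At 40 mM the 3 enzymes that carry citrate carbon into palmitate, ACLY, ACACA and FASN, fell, and ELOVL6 and LPIN1, which act after it, rose. These were 3 of the 5 lower and 2 higher, where 27.4% of all tested genes fell and 28.8% rose. At 20 mM FASN alone of the 5 was called, where 15.2% of all tested genes fell. Their summed level was 127, 132 and 136 FPKM at 0 mM, 112, 111 and 113 FPKM at 20 mM, and 104, 103 and 106 FPKM at 40 mM, and the 3 groups did not overlap. ACLY and FASN make up most of that sum. With each of the 5 genes weighted alike, the mean log2 ratio to the 0 mM mean was -0.10, -0.11 and -0.08 at 20 mM and -0.08 in each of the 3 libraries of 40 mM, so that by this measure 40 mM did not lie below 20 mM. FASN (ENSG00000169710, chromosome 17, 82078338 to 82098294), was at 48.98, 52.3 and 57.1 FPKM at 0 mM, at 35.97, 34.96 and 36.04 FPKM at 20 mM, and at 30.0, 28.95 and 34 FPKM at 40 mM. The groups did not overlap at any pair of doses. Its log2 fold change was -0.57 ± 0.07 at 20 mM and -0.80 ± 0.07 at 40 mM (edgeR adjusted p = 0.00015 and 3.3e-06), and -0.23 ± 0.07 at 40 mM against 20 mM (adjusted p = 0.023), where 5 of the 6 single libraries compared ended the call and the value ran from -0.31 to -0.18.

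ACLY (ENSG00000131473, chromosome 17, 41866917 to 41930542) was at 58.2, 59.6 and 58.0 FPKM at 0 mM, 54.9, 54.9 and 55.5 FPKM at 20 mM, and 51.6, 50.6 and 49.9 FPKM at 40 mM. Its 3 groups were separate and tight, at -0.09 ± 0.03 for 20 mM (edgeR adjusted p = 0.061), -0.24 ± 0.03 for 40 mM (adjusted p = 0.00013) and -0.15 ± 0.03 at 40 mM against 20 mM (adjusted p = 0.008). ACACA, the acetyl-CoA carboxylase that makes malonyl-CoA (ENSG00000278540, chromosome 17, 37084992 to 37406836), was at 7.77, 8.23 and 8.61 FPKM at 0 mM, 7.99, 7.92 and 7.89 FPKM at 20 mM, and 7.24, 7.37 and 7.35 FPKM at 40 mM. The 40 mM libraries lay below both other groups, at -0.20 ± 0.04 against 0 mM (edgeR adjusted p = 0.0018) and -0.15 ± 0.04 against 20 mM (adjusted p = 0.021, lost without any of 4 single libraries).

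LPIN1, a phosphatidate phosphatase of glycerolipid synthesis that also acts in the nucleus (ENSG00000134324, chromosome 2, 11677595 to 11827409), had the largest called rise among these 5. It was at 4.29, 4.23 and 4.77 FPKM at 0 mM, at 4.83, 4.65 and 4.72 FPKM at 20 mM, and at 6.97, 6.51 and 5.75 FPKM at 40 mM. The 40 mM libraries exceeded all others, at 0.50 ± 0.07 against 0 mM (edgeR adjusted p = 0.00012) and 0.41 ± 0.07 against 20 mM (adjusted p = 0.0018), while 20 mM gave 0.09 ± 0.07 (adjusted p = 0.34). ELOVL6, which elongates palmitate to stearate (ENSG00000170522, chromosome 4, 110045846 to 110198653), was at 7.38, 7.802 and 8.07 FPKM at 0 mM, 8.03, 8.504 and 8.76 FPKM at 20 mM, and 8.56, 9.48 and 9.11 FPKM at 40 mM. Its 40 mM libraries all lay above the untreated ones, at 0.19 ± 0.05 (edgeR adjusted p = 0.0097), and its 20 mM libraries overlapped them, at 0.12 ± 0.05 (adjusted p = 0.11).

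The shape of the dose course was tested by asking whether the step from 20 to 40 mM equalled that from 0 to 20 mM on the log2 scale. A positive difference means a course that sags at 20 mM. HMGCS1 (0.92 ± 0.24, edgeR adjusted p = 0.043), IDI1 (0.61 ± 0.14, adjusted p = 0.027), INSIG1 (0.54 ± 0.13, adjusted p = 0.032) and SQLE (0.52 ± 0.11, adjusted p = 0.022) departed from a straight line in this way. These are 4 of the 29 genes, where 2.73% of all tested genes were called in that direction, and none of the 29 was called in the other, where 4.11% were. SQLE and INSIG1 were the members called both lower at 20 mM against 0 mM and higher at 40 mM against 20 mM, as were 0.871% of all tested genes. PMVK (0.00 ± 0.17) and MVD (0.06 ± 0.14) lay close to a straight line (edgeR adjusted p = 0.99 and 0.83), and both were lower in each step, together with FASN, as were 5.79% of all tested genes. FDPS had the opposite tendency at -0.27 ± 0.08 (edgeR adjusted p = 0.086). The median departure of the 18 enzymes of sterol synthesis was 0.20 and that of the 5 fatty acid and glycerolipid enzymes -0.05, against -0.01 over all tested genes.

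The number of sagging genes depended on single libraries. Without replicate 2 or 3 of 20 mM it was 0, without replicate 1 or 2 of 0 mM or replicate 2 of 40 mM it was 1, without replicate 3 of 0 mM or replicate 1 of 40 mM it was 2, without replicate 1 of 20 mM it was 3 (IDI1, SQLE and HSD17B7), and without replicate 3 of 40 mM it was 9, where 6.05% of all tested genes were called. HMGCS1 and INSIG1 were called only with all 9 libraries or without replicate 3 of 40 mM, whereas the SQLE call was lost without replicate 2 or 3 of 20 mM alone. The sizes moved less, from 0.77 to 1.10 for HMGCS1, 0.55 to 0.74 for IDI1, 0.48 to 0.62 for INSIG1 and 0.42 to 0.60 for SQLE over all left-out libraries.

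**Figure D4:**
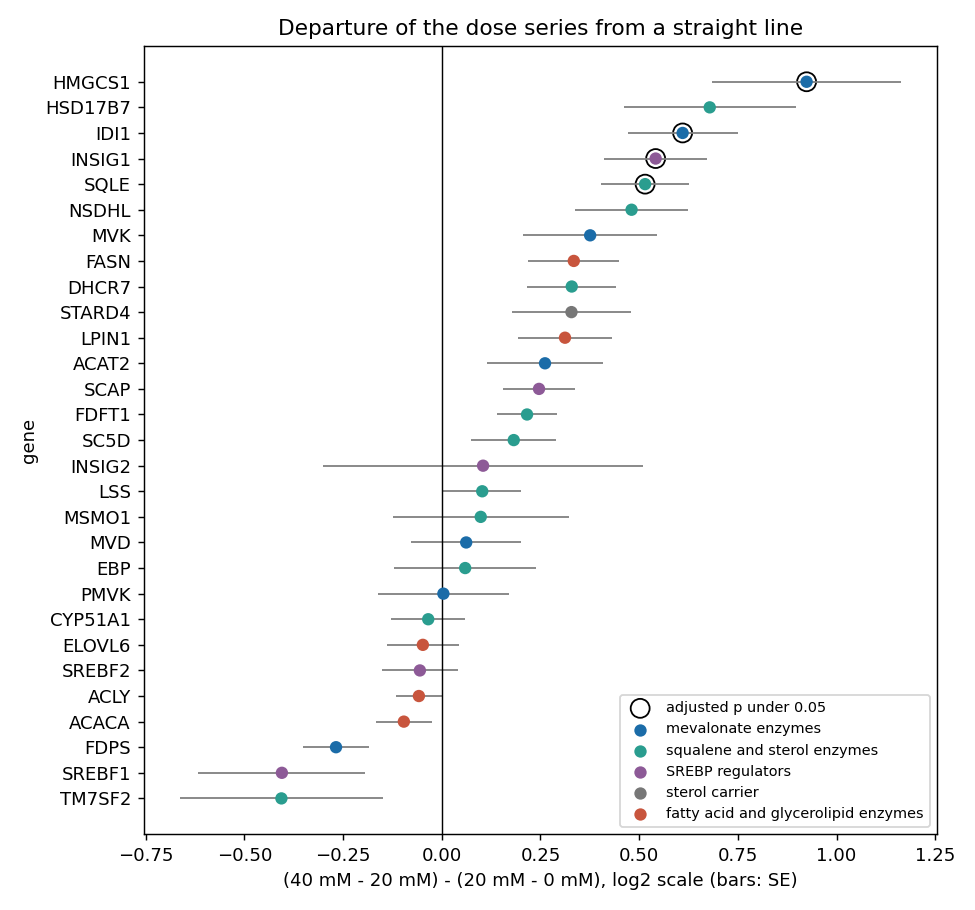
Difference between the step from 20 to 40 mM and the step from 0 to 20 mM (horizontal axis, log2 scale, with SE bars) for each gene, sorted and coloured by role; rings mark an adjusted p under 0.05. HMGCS1, IDI1, INSIG1 and SQLE are ringed at 0.52 to 0.92, and PMVK and MVD lie at 0.00 and 0.06.

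Replicate 3 of 40 mM was at the low end for most enzymes of sterol synthesis. It was the lowest of its group for 13 of the 18 enzymes of sterol synthesis and the highest for 1 of them, whereas it was the lowest for 42.5% and the highest for 38.1% of all tested genes. Replicate 1 of 40 mM was the highest for 15 of the 18 enzymes, against 32.6% of all tested genes. The other doses had a like tendency, less marked. At 20 mM replicate 3 was the lowest for 10 and replicate 1 the highest for 11, against 34.9% and 35.2% of all tested genes. At 0 mM these were 8 and 10, against 32.6% and 27.1%. Without replicate 3 of 40 mM, HMGCS1 was called as higher at 40 mM against 20 mM (0.42 ± 0.09, edgeR adjusted p = 0.006). So were IDI1 (0.27 ± 0.06, adjusted p = 0.0061), NSDHL (0.23 ± 0.07, adjusted p = 0.02) and MSMO1 (0.34 ± 0.12, adjusted p rounding to 0.05). That made 7 rather than 3 genes higher between the doses, where 15.9% of all tested genes were. The 13 genes lower at 40 mM against 0 mM were all still called without it, and so were the 5 that were higher. Replicate 3 of 40 mM had the fewest counts and the largest mitochondrial share of its group, as given above. At 0 and 20 mM replicate 3 had the largest mitochondrial share too. The part of depth and mitochondrial share in the sterol gene levels was not tested.

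Other genes of the pathway were taken from 4 lists, whose counts are to be read against the 16.3% of all tested genes higher and 15.2% lower at 20 mM, and the 28.8% higher and 27.4% lower at 40 mM. Of 9 genes of SREBP processing and sterol-regulated degradation, 2 rose and none fell at 20 mM, and 4 rose and 2 fell at 40 mM, the falls being near the 27.4% of all tested genes. MBTPS2, the intramembrane protease that completes SREBP release, was at 6.41, 6.13 and 7.01 FPKM at 0 mM, 6.78, 6.54 and 6.54 FPKM at 20 mM, and 5.01, 5.65 and 5.502 FPKM at 40 mM, so that its 40 mM libraries were the low group (-0.31 ± 0.06 against 0 mM, edgeR adjusted p = 0.0013). SEC23A, a coat protein of the vesicles that leave the endoplasmic reticulum, fell by 0.22 ± 0.04 at 40 mM (edgeR adjusted p = 0.00057), while its partner SEC24D rose by 0.17 ± 0.04 (adjusted p = 0.0059) and the ubiquitin ligase RNF139 by 0.31 ± 0.06 (adjusted p = 0.0011).

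Of 10 genes of sterol export, esterification, traffic and LXR control, 8 were tested. At both doses 3 of them rose, and 2 fell at 20 mM and 3 at 40 mM. At 40 mM both counts were near the shares of all tested genes, 28.8% higher and 27.4% lower. NPC1, which moves cholesterol out of lysosomes, was at 5.40, 5.68 and 5.5 FPKM at 0 mM, 7.01, 7.04 and 6.93 FPKM at 20 mM, and 9.61, 9.13 and 8.58 FPKM at 40 mM. Its groups did not overlap, with 0.34 ± 0.05 at 20 mM and 0.69 ± 0.05 at 40 mM (edgeR adjusted p = 0.00038 and 8.1e-07). Its lysosomal partner NPC2 rose by 0.38 ± 0.08 at 40 mM (edgeR adjusted p = 0.0016) and the cholesterol esterifying enzyme SOAT1 by 0.28 ± 0.05 (adjusted p = 0.0012), whereas TMEM97, a membrane protein that binds NPC1, fell by 0.29 ± 0.04 (adjusted p = 0.00016). Direct LXR targets ABCA1 and ABCG1 averaged 0.628 and 0.0863 FPKM and were not tested.

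Of 11 further lipid synthesis genes reported as SREBP targets, 10 were tested, and at 40 mM 5 rose and 3 fell, against 3 and 1 at 20 mM. The falls were near the shares of all tested genes, 27.4% at 40 mM and 15.2% at 20 mM. MID1IP1, an activator of acetyl-CoA carboxylase, was at 5.88, 5.67 and 6.02 FPKM at 0 mM, 9.98, 11.04 and 10.3 FPKM at 20 mM, and 10.5, 10.2 and 9.76 FPKM at 40 mM. All treated libraries were far above the untreated ones, at 0.83 ± 0.05 and 0.76 ± 0.05 (edgeR adjusted p = 2.4e-06 and 1.3e-06). The mitochondrial citrate exporter SLC25A1 fell by 0.23 ± 0.06 at 20 mM and 0.43 ± 0.06 at 40 mM (edgeR adjusted p = 0.0094 and 7.7e-05), malic enzyme ME1 rose by 0.15 ± 0.04 and 0.25 ± 0.04 (adjusted p = 0.013 and 0.00027), and the acyltransferase GPAM rose at 40 mM by 0.18 ± 0.05 (adjusted p = 0.0066). In the 6 genes of other mevalonate branches, 1 rose and 3 fell at each dose, where 15.2% of all tested genes fell at 20 mM and 27.4% at 40 mM. GGPS1, which makes the geranylgeranyl unit for prenylation, was at 8.94, 7.76 and 8.77 FPKM at 0 mM, 7.34, 6.76 and 7.26 FPKM at 20 mM, and 5.40, 5.62 and 4.79 FPKM at 40 mM. Its groups stepped down without overlap, at -0.26 ± 0.08 and -0.72 ± 0.08 (edgeR adjusted p = 0.027 and 2.1e-05). PGGT1B, the catalytic subunit of geranylgeranyl transferase, fell by 0.26 ± 0.06 at 40 mM (edgeR adjusted p = 0.0048), NUS1 of dolichol synthesis by 0.15 ± 0.05 (adjusted p = 0.022), and FNTA, a subunit shared by farnesyl and geranylgeranyl transferases, rose by 0.24 ± 0.07 (adjusted p = 0.013).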

How the data were processed

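Per the labels' protocols, poly(A) RNA was selected on oligo(dT) beads and turned into paired-end libraries that mark strand through dUTP. The deposited table of the authors holds, per the file headers, a read count and an FPKM value for every gene in every library. Per the submitters' processing notes, StringTie 2.1.6 was used, in a role they do not state. The sources used here give no aligner, annotation, build, strand setting or filter.

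Counts were tested as deposited with glmQLFit and glmQLFTest of edgeR 4.0.16 (R 4.3.3), with TMM scaling and all 9 libraries in 1 fit with dose as a factor. Genes with a mean of at least 1 FPKM were tested, 12394 of 37118, holding 98.74% of the counts. Calls need a Benjamini-Hochberg adjusted p under 0.05. The SE is the log2 fold change over the square root of F. The tests were tested on simulated data. Alternatives were no filter, a filter at 5 FPKM, median-of-ratios scaling, DESeq2 1.42.0, limma 3.58.1 on log2(FPKM + 1), a replicate block, only the 6 libraries compared, and leaving out each library. With these depths, of 65738242 to 75629413 counts, the spread between libraries sets the precision, and SE values give it. Every member could be named. Of each other list, up to 4 called genes with the smallest p at 40 mM against 0 mM were named. The members and lists were chosen with earlier results of these data known. Promoter windows are from RefSeq (GRCh38.p14), searched with Python 3.11.15.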

Additional observations from a re-analysis of the deposited data

How the results depend on the processing

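Counts of called genes are given with the comparison they belong to, mostly where they moved by over 1.5 times or from or to 0. Median-of-ratios scaling moved none of them by over 1.5 times. The 13 genes lower at 40 mM against 0 mM were 10 with no filter and 10 with the 5 FPKM filter. They were 11 in limma, 15 in DESeq2 and 16 with the replicate block. The 5 FPKM filter tested 22 of the 29 genes. It left MVK, MVD and STARD4 of the 13 untested, and TM7SF2 as well. With no filter on low values, 9 genes were lower and 0 higher at 20 mM against 0 mM (later sterol enzymes higher 0, regulators lower 1), 4 mevalonate enzymes were lower at 40 mM against 0 mM, 0 regulators were higher at 40 mM against 20 mM and 0 genes sagged at 20 mM. With a filter at 5 FPKM, 0 genes, and so 0 later sterol enzymes, were higher at 20 mM against 0 mM, and 2 later sterol enzymes were higher at 40 mM against 20 mM. DESeq2 gave 2 fatty acid enzymes lower at 20 mM against 0 mM, 3 later sterol enzymes lower at 40 mM against 0 mM, 1 regulator lower at 40 mM against 20 mM, 7 sagging genes and 1 bulging gene. limma gave 2 later sterol enzymes higher and 1 fatty acid enzyme lower at 40 mM against 20 mM. With only the 6 libraries compared, 2 fatty acid enzymes were lower at 20 mM and 2 later sterol enzymes at 40 mM against 0 mM. The stricter filter and the smaller fits test fewer genes or libraries; otherwise the cause was not tested.

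Same-numbered libraries' deviations from their group means correlated at -0.042 to 0.222, against -0.222 to 0.088 for different numbers at different doses. Not every library correlated best with its own number, and the fit behind the calls did not pair the libraries. In replicates 1, 2 and 3 the 18 enzymes of sterol synthesis summed to 250, 245 and 240 FPKM at 0 mM. The sums were 221, 214 and 211 FPKM at 20 mM, and 237, 226 and 197 FPKM at 40 mM, in the same order at each dose. With the replicate block, 2 genes were higher at 20 mM against 0 mM (1 a fatty acid enzyme), 3 later sterol enzymes and 2 regulators were lower at 40 mM against 0 mM, 5 genes were higher at 40 mM against 20 mM (1 mevalonate enzyme, 2 later sterol enzymes), 1 regulator was lower there, 7 genes sagged and 1 bulged.

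Leaving out each library in turn gave 9 to 15 genes lower and 0 to 1 higher at 20 mM against 0 mM, with 0 to 1 later sterol enzymes higher and 1 to 2 regulators and 1 to 2 fatty acid enzymes lower. With 40 mM against 0 mM it gave 9 to 14 genes lower and 3 to 5 higher. Among them 3 to 7 mevalonate enzymes, 1 to 2 later sterol enzymes and 1 to 2 regulators were lower, and 1 to 3 later sterol enzymes higher. With 40 mM against 20 mM it gave 2 to 7 genes higher, with 0 to 2 mevalonate enzymes, 1 to 3 later sterol enzymes and 0 to 1 regulators. It gave 4 to 8 genes lower there, with 0 to 2 regulators and 1 to 3 fatty acid enzymes. It gave 0 to 9 sagging and 0 to 2 bulging genes.

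Signs turned only in values that were not called, and those of INSIG2 ran over a wide range. EBP at 40 mM against 0 mM was at 0.0188 with the 5 FPKM filter and 0.0176 in limma, and at 40 mM against 20 mM ACAT2 was at -0.0022 without a filter and SREBF2 at 0.0106 in limma. Over left-out libraries, the log2 fold change at 20 mM against 0 mM ran from -0.0651 to 0.0032 for LSS, -0.0959 to 0.0308 for EBP, -0.0913 to 0.0214 for SC5D and -0.0899 to 0.1764 for INSIG2. For 40 mM against 0 mM it ran from -0.1031 to 0.1231 for EBP, -0.0494 to 0.0621 for SREBF2, -0.0183 to 0.1246 for INSIG1 and -0.087 to 0.3747 for INSIG2. For 40 mM against 20 mM it ran from -0.0656 to 0.1209 for ACAT2, -0.0225 to 0.1448 for MVK, -0.0655 to 0.1642 for TM7SF2, -0.071 to 0.1552 for EBP, -0.0956 to 0.0144 for DHCR7, -0.0876 to 0.0239 for SREBF2, -0.0939 to 0.3678 for INSIG2 and -0.0505 to 0.093 for STARD4. With 3 libraries a dose, an adjusted p above 0.05 does not show that a gene stayed level.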
